A study of Mus musculus with 8 samples.

Results

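The data described here are the transcript levels of 10 mouse genes of pluripotency and early embryonic cells, Pou5f1, Nanog, Lin28a, Lin28b, Utf1, Zfp42, Tdgf1, Dnmt3b, Dppa4 and Sall4, out of 18193 genes with a single symbol on the arrays. The genes were taken by symbol. They were read by 15 probe sets, and where several probe sets read a gene, the brightest on average across the 8 arrays stood for it and the others served as a check. Total RNA was taken from embryo propers of Runx1 knockout and wild-type mice at embryonic day 12 (E12) and embryonic day 8.5 (E8.5). Each of the 4 groups, E12 knockout, E12 wild type, E8.5 knockout and E8.5 wild type, had 2 arrays. All mice were on the BALB/c background. Runx1 encodes a DNA-binding transcription factor required for definitive blood formation, and the study asked which genes change when it is missing. By the study's text each array stands for an embryo proper of its own, and the structure of the disrupted allele is not described in the sources at hand. Values are log2 of probe-set intensities after Robust Multi-array Analysis, and a difference of 1 is a doubling of intensity. The RNA came from whole embryos, so fewer cells of a type and less RNA per cell cannot be told apart.

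Pou5f1 (OCT4) and Nanog are transcription factors at the core of the network that keeps cells of the inner cell mass and epiblast pluripotent. As the embryo gastrulates the network is shut down, and Pou5f1 then remains in primordial germ cells. The other genes accompany this state in different roles. Lin28a and Lin28b encode RNA-binding proteins that block maturation of the let-7 microRNAs, Tdgf1 (Cripto) is a co-receptor for the signalling protein Nodal, and Dnmt3b places new methyl groups on DNA. Sall4 is a zinc-finger transcription factor that works with Pou5f1, Zfp42 (REX1) is a zinc-finger protein widely used as a marker of the naive pluripotent state, and Utf1 and Dppa4 are chromatin-associated proteins of embryonic stem cells. Zfp42 and Utf1 are also transcribed in the trophoblast lineage of the early mouse conceptus.

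RefSeq promoter windows of assembly GRCm38.p6, which run from 250 bases before to 50 bases after a transcription start, were found for 8 of the 10 genes, in 10 windows. Dppa4 and Sall4 were not matched. The windows of 3 genes are printed 5' to 3' on the strand of the gene, because Pou5f1 and Lin28a had the clearest knockout differences at E8.5 and Zfp42 the widest gap between replicates. Capitals mark, in Pou5f1 (chr17:35505782-35506081, plus strand), the GC box GGGCGG and the nuclear receptor half-site AGGTCA. In Zfp42 (chr8:43306960-43307259, minus strand) they mark ATTTGCAT, the octamer bound by POU proteins read on the other strand. In Lin28a (chr4:134018767-134019066, minus strand) they mark CATTGT, a core bound by SOX proteins.
Pou5f1: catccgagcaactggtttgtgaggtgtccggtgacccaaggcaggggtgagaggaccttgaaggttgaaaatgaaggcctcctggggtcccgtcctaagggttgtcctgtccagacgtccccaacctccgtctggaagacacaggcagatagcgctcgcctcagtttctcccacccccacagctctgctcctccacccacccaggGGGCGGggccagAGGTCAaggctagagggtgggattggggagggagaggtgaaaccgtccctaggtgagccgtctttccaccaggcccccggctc
Zfp42: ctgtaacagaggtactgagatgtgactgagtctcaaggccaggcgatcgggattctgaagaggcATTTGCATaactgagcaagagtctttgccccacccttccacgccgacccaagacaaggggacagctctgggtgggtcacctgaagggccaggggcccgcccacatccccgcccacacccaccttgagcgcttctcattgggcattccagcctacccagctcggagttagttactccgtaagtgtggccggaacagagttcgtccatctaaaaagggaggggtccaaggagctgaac
Lin28a: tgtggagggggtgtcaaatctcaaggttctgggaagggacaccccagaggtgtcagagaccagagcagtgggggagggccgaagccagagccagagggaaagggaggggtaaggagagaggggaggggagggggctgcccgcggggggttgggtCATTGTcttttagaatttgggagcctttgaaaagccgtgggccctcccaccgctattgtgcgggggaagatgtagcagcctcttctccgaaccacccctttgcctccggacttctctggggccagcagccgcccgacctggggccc

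The marked letters began at position -45 (GGGCGG) and -33 (AGGTCA) in Pou5f1, -186 in Zfp42 and -96 in Lin28a, counted from the start site. Motifs were searched on both strands in every window. The octamer ATGCAAAT lay in 1.74% of all 32851 windows and, among these genes, in that of Zfp42 alone. The SOX core CATTGT lay in 4 of the 10 windows, of Lin28a, Nanog and Pou5f1, against 12.6% of all. The Nanog windows overlap and are not separate cases, and the Pou5f1 match lay in its second window, which is not printed. The GC box GGGCGG lay in 6 of the 10 windows, against 35.7% of all, and AGGTCA in windows of Nanog and Pou5f1, against 16.3% of all. The RUNX core TGTGGT was in 0 of the 10 windows and in 16.8% of all windows. These matches describe the letters only. The number of CpG dinucleotides ranged from 4 in both Nanog windows to 30 in that of Dnmt3b, with 17 for Utf1, 11 for Zfp42 and a median of 7 over all windows.

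The arrays differed in ways that bear on these genes. The 99th percentile of log2 intensity was 10.51 to 11.09 at E12 and 12.24 to 12.30 at E8.5, so how the stages were scaled to each other bears on every difference between them. Replicates were closest in E12 knockout, where the differences between them had an SD of 0.227 over all probe sets, against 0.490 in E12 wild type. The SD was 0.403 for E8.5 knockout and 0.833 for E8.5 wild type. The fit shares 1 spread among the groups, and the errors it gives for E8.5 wild type are therefore closer to the average of the groups than to that group's own spread. E8.5 wild type replicate 1 stood apart for tissue markers. Of 6 trophoblast genes, 5 were highest there among the E8.5 arrays, and their list mean was 9.59 in that array and 5.65 in E8.5 wild type replicate 2, with 6.60 and 5.70 in E8.5 knockout and 5.21 to 5.53 at E12. Of 13 primitive streak and tail bud genes, 12 were lowest there, with Nkx1-2 at 10.38 and 10.10 in E8.5 knockout and 5.31 and 10.77 in E8.5 wild type replicates 1 and 2. E8.5 wild type replicate 2 was highest for 6 of 7 red-cell genes. E8.5 wild type replicate 1 also read 11.51 for the X-linked Xist and 2.60 for the Y-linked Eif2s3y. The other E8.5 arrays read 5.927 to 6.247 for Xist and 8.955 to 9.053 for Eif2s3y. At E12, knockout replicate 2 had the pattern of that array (10.33 and 2.68). What embryo sex contributes to the differences was not tested. The main results that use the E8.5 wild-type arrays are also given without either of them.

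Between the stages, Lin28a, Dnmt3b, Sall4 and Dppa4 were lower at E12 than at E8.5 in both genotypes, and Pou5f1 was lower at E12 in knockout. In knockout embryos limma called 5 of the 10 genes lower at E12 (adjusted p below 0.05), against 18.3% of all genes called lower, and 0 higher, against 13.8%. In wild type it called 4 of the 10 lower, against 19.6% of all genes, and 0 higher, against 14.8%. The E12 arrays lay wholly below the E8.5 arrays for 8 of the 10 genes in knockout, against 39.6% of all genes, and for 5 of the 10 in wild type, against 32.9%. The 8 in knockout include Nanog and Tdgf1, which lay below the array median in every array. The median log2 difference of the 10 genes was -2.54 in knockout and -1.35 in wild type, against 0.012 and -0.0093 over all genes. The size of the fall differed between the genes, as the plot of all arrays shows.

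**Figure D1:**
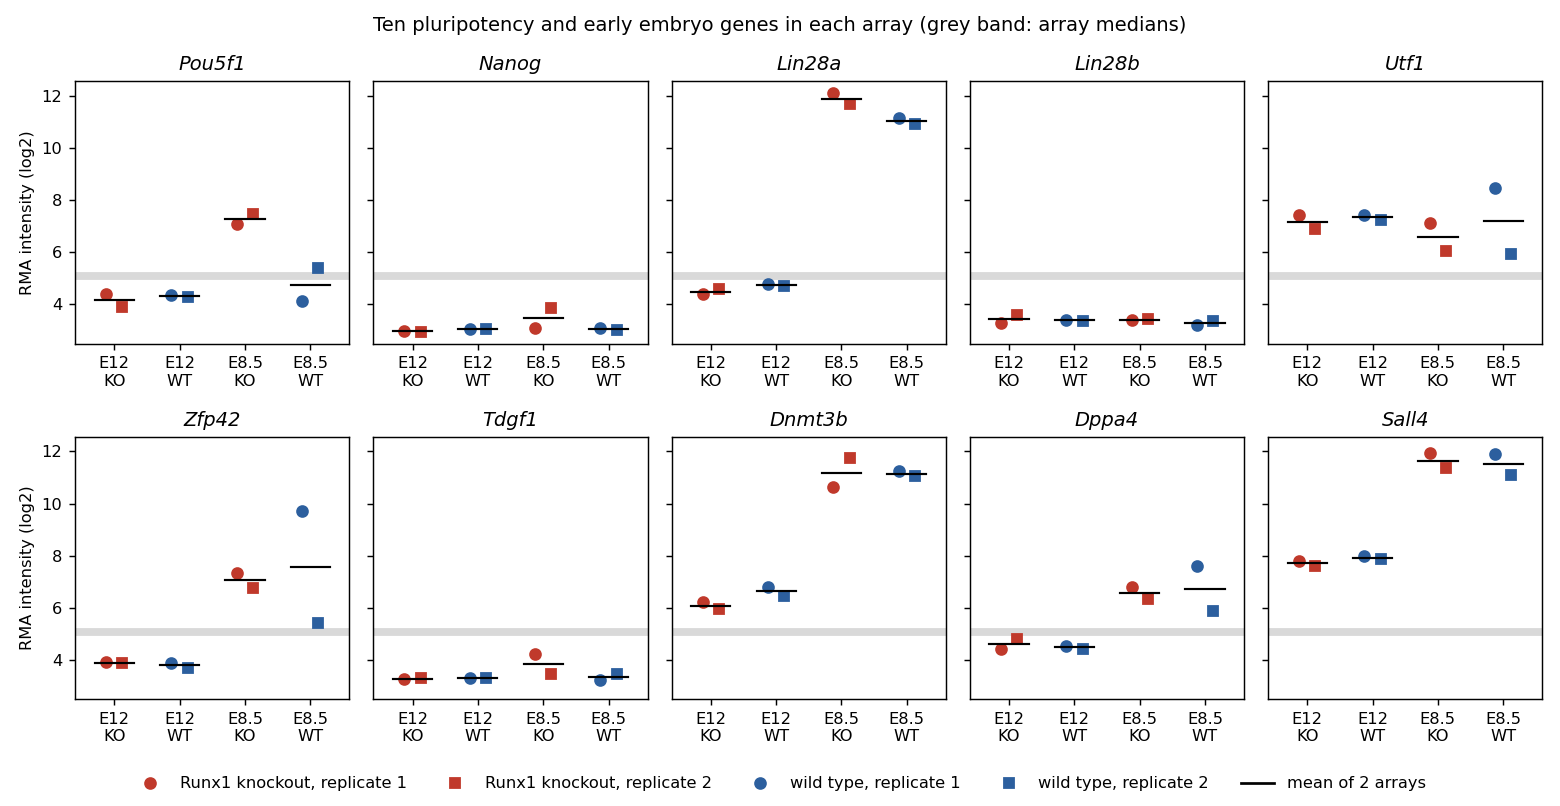
Log2 intensity (vertical axis) of each of the 10 genes in each array, with E12 knockout, E12 wild type, E8.5 knockout and E8.5 wild type from left to right. Points are arrays (2 per group), bars are group means and the grey band spans the array medians; Lin28a, Dnmt3b and Sall4 were above 10 in every E8.5 array and below 8 in every E12 array, and Nanog, Lin28b and Tdgf1 were dim throughout.

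Lin28a had the largest fall of the 10. Its probe set read 4.38 and 4.57 in E12 knockout, against 12.11 and 11.67 in E8.5 knockout. In wild type it read 4.79 and 4.69 at E12, against 11.16 and 10.93 at E8.5. The stages were far apart, and in every E12 embryo the probe set lay below the median of its array. The difference was -7.41 in knockout (SE 0.20, 171-fold lower, limma adjusted p = 6.07e-05) and -6.30 in wild type (SE 0.20, 79.0-fold lower, adjusted p = 0.000149). Without E8.5 wild type replicate 1 or 2 the wild-type difference was -6.19 or -6.42. A second Lin28a probe set gave smaller differences of -4.75 in knockout and -4.13 in wild type, in the same direction. The E12 values lay below the array medians for Lin28a, as they did for Pou5f1, Zfp42 and Dppa4. How far background sets the stage differences of these genes was not tested.

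Lin28b, the paralogue of Lin28a, was flat by comparison. It read 3.28 and 3.59 in E12 knockout, against 3.41 and 3.43 in E8.5 knockout, and 3.41 and 3.38 in E12 wild type, against 3.21 and 3.36 in E8.5 wild type. All these values lay below the median of the array, where the probe set gives little information about the level of the transcript, and the groups overlapped in knockout.

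Dnmt3b, the DNA methyltransferase of the early embryo, read 6.20 and 5.95 in E12 knockout, against 10.62 and 11.73 in E8.5 knockout. In wild type it read 6.81 and 6.46 at E12, against 11.24 and 11.04 at E8.5. Stages were far apart in both genotypes, and unlike Lin28a the gene stayed above the array medians at E12. It was lower by -5.10 in knockout (SE 0.36, 34.2-fold lower, limma adjusted p = 0.00094) and by -4.50 in wild type (SE 0.36, 22.7-fold lower, adjusted p = 0.00124). Without E8.5 wild type replicate 1 or 2 the wild-type difference was -4.40 or -4.61. A second Dnmt3b probe set gave -3.39 and -3.21.

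Sall4 read 7.80 and 7.62 in E12 knockout, against 11.92 and 11.36 in E8.5 knockout. It read 7.98 and 7.87 in E12 wild type, against 11.90 and 11.11 in E8.5 wild type. Every E12 array lay over 3 units below every E8.5 array. Its difference was -3.93 in knockout (SE 0.31, 15.3-fold lower, limma adjusted p = 0.00112) and -3.58 in wild type (SE 0.31, 12-fold lower, adjusted p = 0.00144). Without E8.5 wild type replicate 1 or 2 the wild-type difference was -3.18 or -3.98. The second Sall4 probe set gave -2.54 and -3.32.

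Dppa4, which binds chromatin together with its relative Dppa2, fell by less. It read 4.43 and 4.79 in E12 knockout, against 6.78 and 6.35 in E8.5 knockout, and 4.54 and 4.43 in E12 wild type, against 7.60 and 5.86 in E8.5 wild type. The difference was -1.96 in knockout (SE 0.53, 3.88-fold lower, limma adjusted p = 0.0381) and -2.25 in wild type (SE 0.53, 4.75-fold lower, adjusted p = 0.0228). Stages did not overlap in either genotype, yet these calls were close to the threshold. With 1 array left out, the call was lost in 6 of the 8 fits for knockout (adjusted p of 0.063 to 0.191) and without any of the 4 E12 arrays for wild type (adjusted p of 0.0516 to 0.0983). The wild-type difference was -1.37 without E8.5 wild type replicate 1 and -3.12 without replicate 2, and was called in both fits.

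Pou5f1 was lower at E12 in knockout and was not called in wild type. It read 4.41 and 3.92 in E12 knockout, against 7.07 and 7.48 in E8.5 knockout. In wild type it read 4.35 and 4.27 at E12, against 4.14 and 5.38 at E8.5, so that the wild-type stages overlapped. The difference was -3.12 in knockout (SE 0.41, 8.68-fold lower, limma adjusted p = 0.00424) and -0.45 in wild type (SE 0.41, adjusted p = 0.463). Without E8.5 wild type replicate 1, the wild-type difference was -1.07 (adjusted p = 0.0289), and without replicate 2 it was 0.17.

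Zfp42 had mean differences of similar size to Pou5f1 in knockout but did not pass the test. It read 3.92 and 3.88 in E12 knockout, against 7.33 and 6.77 in E8.5 knockout. In wild type it read 3.88 and 3.71 at E12, against 9.73 and 5.42 at E8.5. Every E12 array lay below every E8.5 array of its genotype, while the E8.5 wild-type replicates stood 4.30 apart. That spread enters the error of both stage differences, -3.15 in knockout (SE 1.21, limma adjusted p = 0.105) and -3.78 in wild type (SE 1.21, adjusted p = 0.0603). Without E8.5 wild type replicate 1 the differences were -3.15 in knockout (adjusted p = 0.000352) and -1.63 in wild type (adjusted p = 0.00586), and without replicate 2 that of wild type was -5.93 (adjusted p = 0.000127).

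Utf1, Nanog and Tdgf1 were not called between stages. Utf1 read 7.42 and 6.89 in E12 knockout, against 7.12 and 6.05 in E8.5 knockout, and 7.44 and 7.25 in E12 wild type, against 8.47 and 5.93 in E8.5 wild type. The stages overlapped in both genotypes, with differences of 0.57 (SE 0.79, limma adjusted p = 0.644) and 0.14 (SE 0.79, adjusted p = 0.914). A second of its 3 probe sets, of a type marked on this platform as able to read other transcripts, was higher at E12 in both, by 0.97 (adjusted p = 0.0283) in knockout and 1.11 (adjusted p = 0.0169) in wild type, so the probe sets did not give 1 answer. Nanog read 2.97 and 2.95 in E12 knockout, against 3.10 and 3.87 in E8.5 knockout, and 3.04 and 3.05 in E12 wild type, against 3.08 and 3.02 in E8.5 wild type. Tdgf1 read 3.25 and 3.29 in E12 knockout, against 4.21 and 3.46 in E8.5 knockout, and 3.29 and 3.29 in E12 wild type, against 3.21 and 3.45 in E8.5 wild type. For both genes 1 E8.5 knockout array was the highest of the 8, replicate 2 for Nanog and replicate 1 for Tdgf1, and the knockout stages did not overlap. The knockout differences were -0.52 for Nanog (SE 0.25, adjusted p = 0.179) and -0.56 for Tdgf1 (SE 0.26, adjusted p = 0.156). Nanog, Lin28b and Tdgf1 lay below the array median in all 8 arrays, and the other 7 genes passed a filter at a mean of 5. Without E8.5 knockout replicate 1, the Nanog difference in knockout was -0.91 (adjusted p = 0.0390), and without replicate 2, its high array, it was -0.14 (adjusted p = 0.683). For Tdgf1 it was -0.19 (adjusted p = 0.588) without replicate 1, its high array, and -0.94 (adjusted p = 0.0553) without replicate 2.

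**Figure D2:**
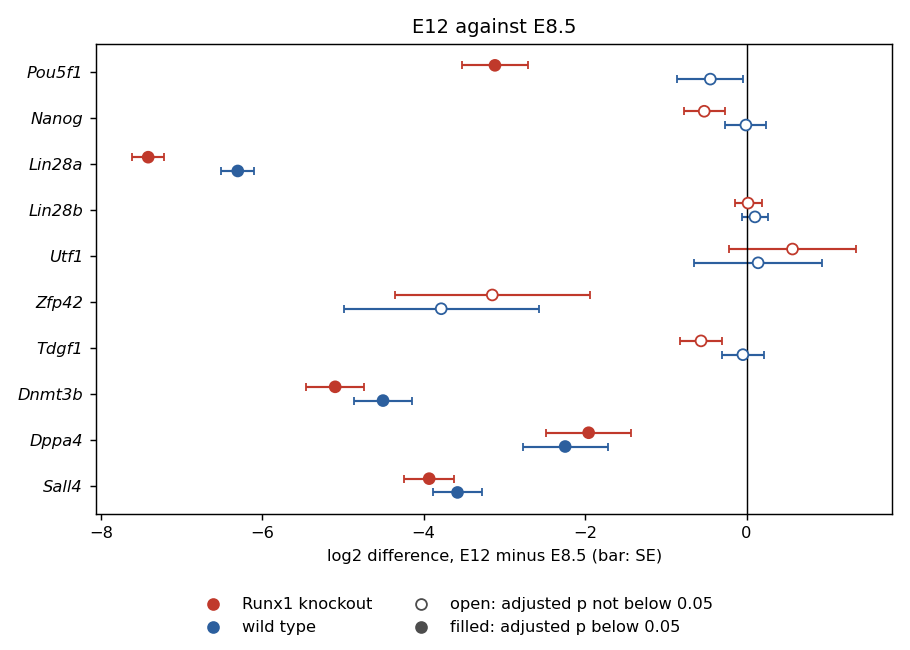
Log2 difference, E12 minus E8.5, of the 10 genes in Runx1 knockout (red, upper) and wild type (blue, lower), with the SE from limma as bars. Filled points have an adjusted p below 0.05 over all probe sets; Lin28a lies farthest from 0 in both genotypes, at -7.41 and -6.30, and Pou5f1 is filled in knockout only.

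At E8.5, the clearest knockout differences were those of Pou5f1 and Lin28a, both higher in knockout, and neither passed the correction for all probe sets. limma called 0 of the 10 genes and 0% of all genes. Of the 10, 2 had an unadjusted p below 0.05, against 2132 of all 45037 probe sets. With 1 probe set per gene, the same 2 genes, and no other of the 10, passed the threshold of the study's methods, an absolute t above 3 without correction, which 2.31% of all genes passed. Of the other probe sets of the 10 genes, the second one of Sall4 passed it too, on the lower side. Both knockout arrays lay above both wild-type arrays for 5 of the 10 genes (Pou5f1, Nanog, Lin28a, Lin28b and Tdgf1), against 13.5% of all genes, and below them for 0, against 15.6%. Of these 5, Nanog, Lin28b and Tdgf1 lay below the array median in all 8 arrays, where the order of arrays gives little information. The median difference of the 10 genes was 0.13, against -0.014 over all genes. The E8.5 knockout arrays also enter the stage comparison in knockout, so the higher Pou5f1 here and its fall there share 2 arrays.

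Pou5f1 read 7.07 and 7.48 in E8.5 knockout, against 4.14 and 5.38 in E8.5 wild type. Both knockout embryos stood above both wild-type embryos. The difference was 2.52 (SE 0.41, t = 6.15, 95% confidence interval 1.54 to 3.50, 5.73-fold higher, limma adjusted p = 0.843). The value of E8.5 wild type replicate 1 lay below the median of its array, and how far background sets this fold was not tested. E8.5 wild type replicate 1, the array low in tail bud genes, was also the lowest of the 4 for Pou5f1. Without that array the difference was 1.90 (adjusted p = 0.107), and without E8.5 wild type replicate 2 it was 3.14 (adjusted p = 0.00255). Pou5f1 is transcribed in the posterior of the embryo at about this age. The tail bud list averaged 6.58 and 6.49 in E8.5 knockout and 4.89 and 6.72 in E8.5 wild type, and its part in the Pou5f1 difference was not tested.

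Lin28a read 12.11 and 11.67 in E8.5 knockout, against 11.16 and 10.93 in E8.5 wild type. The groups did not overlap, and the difference was 0.85 (SE 0.20, t = 4.19, 95% confidence interval 0.36 to 1.33, 1.80-fold higher, limma adjusted p = 0.987). It was 0.96 (adjusted p = 0.202) without E8.5 wild type replicate 1 and 0.73 (adjusted p = 0.2) without replicate 2. The second probe set read 9.52 and 8.90, against 8.22 and 8.81, a difference of 0.70. It had the same order of groups, with the nearest arrays close together.

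Nanog, the partner of Pou5f1 in the core network, differed by 0.44 (SE 0.25, limma adjusted p = 1) and Tdgf1 by 0.50 (SE 0.26, adjusted p = 1). In each case the higher mean came mostly from a single knockout array, as given above. Their dim values leave the size of any difference in transcript unknown.

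Zfp42, Utf1 and Dppa4 had the same order of the 4 E8.5 arrays as the mean of the trophoblast list: wild type replicate 1 highest, then knockout replicates 1 and 2, then wild type replicate 2. For Utf1 this held for its brightest probe set only, and the share of all genes with this order was not counted. Zfp42 read 7.33 and 6.77 in E8.5 knockout, against 9.73 and 5.42 in E8.5 wild type, so the knockout arrays lay between the wild-type arrays. Its difference was -0.53 (SE 1.21, limma adjusted p = 1), and it was 1.62 without wild type replicate 1 and -2.68 (adjusted p = 0.00376) without replicate 2. Utf1 differed by -0.62 (SE 0.79), and by 0.65 and -1.89 without those arrays. Dppa4 differed by -0.16 (SE 0.53), and by 0.71 and -1.04 without them. For all 3 genes the direction of the knockout difference thus changed with the wild-type array that was kept. That of Dppa4 also reversed, to 0.053, without E8.5 knockout replicate 2. What the trophoblast signal contributes was not tested. The trophoblast marker Elf5 read 6.51 and 3.74 in E8.5 knockout and 9.10 and 4.0 in E8.5 wild type, and Tpbpa 4.24 and 4.21 in E8.5 knockout and 9.52 and 4.15 in E8.5 wild type.

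For Dnmt3b and Sall4 the knockout difference at E8.5 was smaller than its error. Dnmt3b read 10.62 and 11.73 in E8.5 knockout and 11.24 and 11.04 in E8.5 wild type, a difference of 0.035 (SE 0.36). Sall4 read 11.92 and 11.36 in E8.5 knockout and 11.90 and 11.11 in E8.5 wild type, a difference of 0.14 (SE 0.31). The groups overlapped for both. The second Sall4 probe set, at 7.45 and 7.0 in E8.5 knockout and 8.06 and 8.38 in E8.5 wild type, was lower in knockout by -1.0 (SE 0.28, t = -3.53, limma adjusted p = 0.99), opposite in sign to the first.

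**Figure D3:**
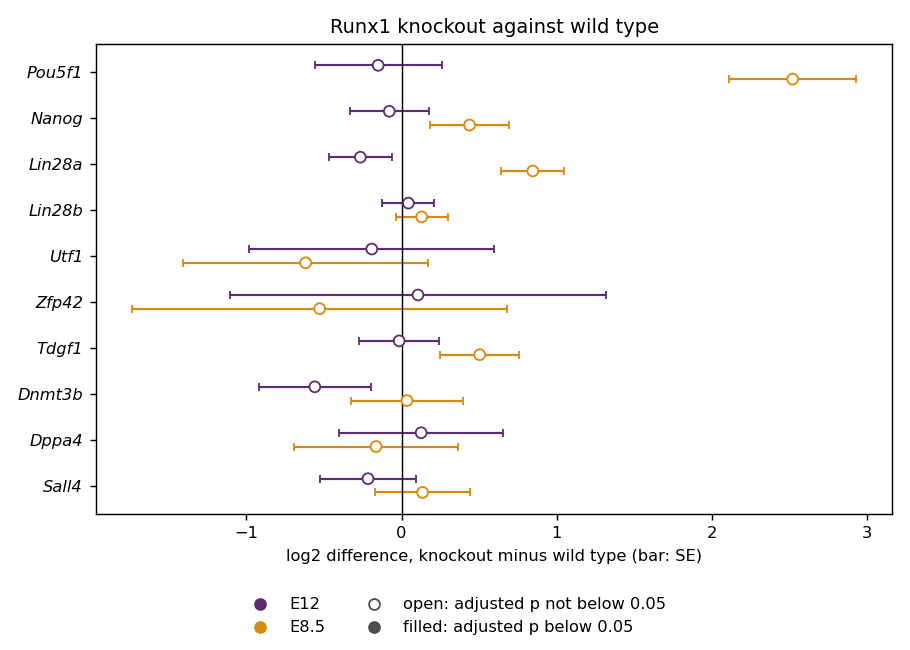
Log2 difference, Runx1 knockout minus wild type, of the 10 genes at E12 (purple, upper) and E8.5 (orange, lower), with the SE from limma as bars. No point has an adjusted p below 0.05; at E8.5 Pou5f1 lies at 2.52 and Lin28a at 0.85, and at E12 all 10 lie between -0.56 and 0.13.

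At E12, no gene of the 10 passed the test between knockout and wild-type embryos. limma called 0 of the 10, against 0.0275% of all genes. Of the 10, 0 had an unadjusted p below 0.05, against 713 of all 45037 probe sets. The differences ran from -0.56 to 0.13, with a median of -0.11, against -0.0063 over all genes. Both knockout arrays lay below both wild-type arrays for 4 of the 10 (Nanog, Lin28a, Dnmt3b and Sall4), against 18.6% of all genes. Nanog and Lin28a lay below the array medians at E12 in both genotypes, and Nanog differed by only -0.079. Dnmt3b had the largest difference, -0.56 (SE 0.36, 95% confidence interval -1.42 to 0.31, limma adjusted p = 1), and Pou5f1 differed by -0.15 (95% confidence interval -1.13 to 0.83). Lin28a differed by -0.27 (SE 0.20) and Sall4 by -0.22 (SE 0.31).

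The change of the knockout difference between the stages was tested directly as E12 minus E8.5. limma called 0 of the 10 genes, against 0.0110% of all genes. Of the 10, Pou5f1 and Lin28a had an unadjusted p below 0.05, against 842 of all 45037 probe sets. Both also had an absolute t above 3, against 0.885% of all genes. For Pou5f1 the change was -2.67 (SE 0.58, adjusted p = 1), without E8.5 wild type replicate 1 it was -2.05 (adjusted p = 0.342), and without replicate 2 it was -3.29 (adjusted p = 0.0109). For Lin28a it was -1.11 (SE 0.29, adjusted p = 1), and -1.23 (adjusted p = 0.415) and -0.995 (adjusted p = 0.286) without those arrays. For Zfp42 it was 0.63 (SE 1.71, adjusted p = 1), and -1.52 (adjusted p = 0.382) and 2.78 (adjusted p = 0.0168) without them. The same contrast is the difference between the stage falls of the genotypes, so the call of Pou5f1 in knockout and not in wild type was not itself a difference past the threshold.

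Other genes of the same pathways were read from lists, with earlier results of these data known, and no gene of these lists was called between knockout and wild type at either stage. Between stages, 18.3% of all genes were called lower at E12 and 13.8% higher in knockout, and 19.6% lower and 14.8% higher in wild type. The lists are short, and the counts of the core partners, of the DNA methylation genes in knockout and of the LIN28 axis in wild type lay near these shares. In wild type the counts called lower of the DNA methylation, germ cell, and primed epiblast and Nodal genes were also near them. That of the primitive streak and tail bud genes lay near the share in knockout and below it in wild type. Of 17 measured partners of the core network, 2 were lower and 3 higher at E12 in each genotype. Tfcp2l1, a factor of naive stem cells, fell by 2.61 in knockout and 2.49 in wild type, and Tbx3 fell by 1.59 and 1.54. Esrrb was higher at E12 by 0.89 and 0.95, and Gdf3, a TGF-beta family ligand, by 0.78 and 1.31. The Esrrb probe set is of the type marked on this platform as able to read other transcripts. The median of the partners, -0.041 in knockout and -0.22 in wild type, was near that of all genes, unlike the 10 genes above.

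Of 11 genes of the LIN28 and let-7 axis, 4 were lower at E12 in knockout and 0 higher, against 18.3% and 13.8% of all genes. In wild type 2 were lower and 1 higher, against 19.6% and 14.8%. The medians were -0.31 in knockout and -0.50 in wild type. Trim71, itself a conserved let-7 target, read 6.42 and 6.36 in E12 knockout, against 10.20 and 9.21 in E8.5 knockout, and fell by 3.31 (limma adjusted p = 0.00254), with a fall of 3.77 in wild type (adjusted p = 0.00186). Prtg, a cell-surface protein of the early neural tube, fell by 6.01 in knockout (adjusted p = 0.00434) and 4.93 in wild type (adjusted p = 0.00716). Arid3b fell by 2.63 and Mycn by 1.13 in knockout, and Igf2bp1 was higher at E12 by 0.77 in wild type. The Igf2bp1 probe set is likewise of the type able to read other transcripts. Hmga2, a classical let-7 target, differed by -1.19 (adjusted p = 0.351) in knockout and 0.16 (adjusted p = 0.913) in wild type.

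Of 7 DNA methylation genes, 1 was lower and 1 higher at E12 in knockout, against 18.3% and 13.8% of all genes. In wild type 2 were lower and 0 higher, against 19.6% and 14.8%. The medians were -0.51 in knockout and -1.17 in wild type. Tet1, an enzyme that oxidises methylcytosine, fell by 1.53 in knockout (limma adjusted p = 0.0061) and 1.86 in wild type (adjusted p = 0.00331). Tet3 was higher at E12 in knockout by 1.25 and Uhrf1, which brings DNMT1 to newly copied DNA, fell by 1.17 in wild type. Dnmt3a, the other de novo methyltransferase, differed by 0.69 (adjusted p = 0.268) and 0.58 (adjusted p = 0.344), against the -5.10 and -4.50 of Dnmt3b. Of the 3 relatives of Sall4, Sall1 fell by 2.21 and 2.19, Sall2 was higher at E12 by 1.43 and 2.54, and Sall3 was not called. The median of the 3 was 0.59 and 0.45, and the family did not move in 1 direction.

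For the next 3 lists the shares of all genes were again 18.3% lower and 13.8% higher in knockout, and 19.6% and 14.8% in wild type. Of 11 primed epiblast and Nodal pathway genes, 1 was lower and 3 higher at E12 in knockout. In wild type 3 were lower and 4 higher, and the medians were -0.20 in knockout and 0.020 in wild type. Cfc1 (Cryptic), the relative of Tdgf1 that serves as a Nodal co-receptor in left-right patterning, fell by 1.98 in knockout and 1.14 in wild type, while Foxh1, a partner of the SMAD proteins, was higher at E12 by 1.61 and 2.16. Of 7 primordial germ cell genes, 3 were lower at E12 in knockout and 2 in wild type, with 0 higher and medians of -1.24 and -0.88. They were Sox17, by -3.95 and -3.61, the germ cell helicase Ddx4, by -0.91 and -0.88, and, in knockout, Prdm1, by -2.01. Ddx4 was dim throughout, with means of 3.83 and 3.77 at E8.5 and 2.92 and 2.89 at E12 in knockout and wild type. These lay below the array medians, so its fall cannot be read with confidence. Sox17 is also a factor of endoderm and endothelium, and its probe set is of the type able to read other transcripts. Of 13 primitive streak and tail bud genes, 3 were lower at E12 in knockout and 1 in wild type, with medians of -1.42 and -0.86. Cdx2, a homeobox factor of the posterior embryo, was lower by -4.29 in knockout and -3.69 in wild type.

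The genes most like each of the 10 over the 8 arrays were found by the root mean square difference between log2 profiles, each centred on its own mean. Those nearest to Lin28a were Car4 (0.263), Amn (0.305) and Slc2a2 (0.471). Sall4 was nearest to Sox17 (0.214), Dab2 (0.248) and Morc4 (0.252), and Dnmt3b to Eps8 (0.321), Cobll1 (0.330) and Abcc4 (0.336). Zfp42 was nearest to Hsd17b2 (0.326), and Dppa4 to Marveld2 (0.129). Pou5f1 had no neighbour as near, with Amph (0.497) first. These distances are descriptions over 8 arrays of 4 groups.

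Amn and Cubn, the receptor pair of absorptive endoderm such as the visceral endoderm, had stage profiles like those of Lin28a. Cubn read 4.26 and 3.93 in E12 knockout and 4.11 and 3.87 in E12 wild type, against 13.29 and 13.35 in E8.5 knockout and 13.07 and 12.99 in E8.5 wild type. The mean of the 7 visceral endoderm genes was 6.92 and 7.26 in E12 knockout and 7.23 and 6.92 in E12 wild type, against 12.61 and 13.04 in E8.5 knockout and 12.08 and 12.92 in E8.5 wild type. All 7 were lower at E12 in every array than in any E8.5 array. Within a genotype, such a separation held for 39.6% of all genes in knockout and 32.9% in wild type. The share of all genes over both genotypes together was not counted. The E8.5 arrays, of samples that the study describes as embryo propers, thus carried strong signal of these genes. The part of that signal in the stage differences of Lin28a, Dnmt3b and Sall4 was not tested.

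**Figure D4:**
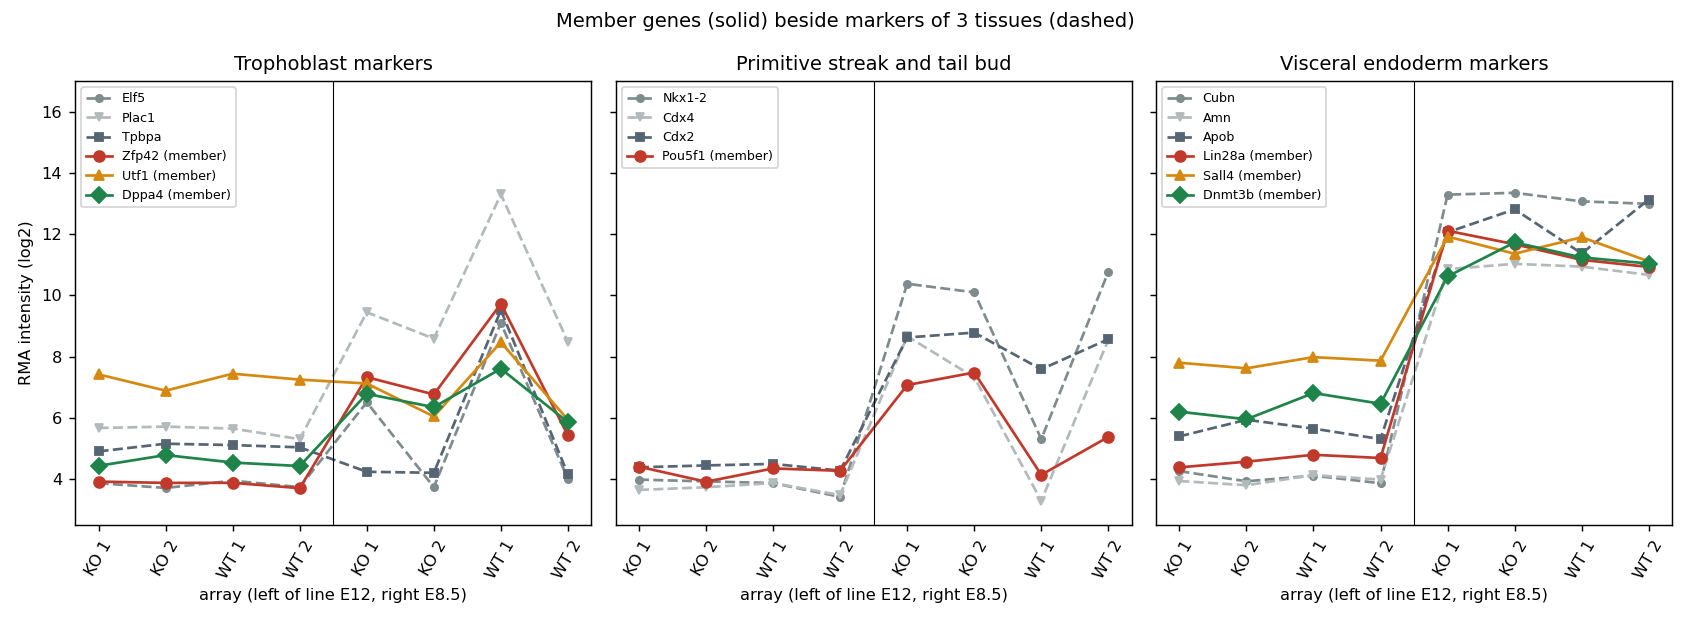
Log2 intensity in each array (E12 left of the vertical line, E8.5 right) of 7 of the 10 genes (solid) beside markers of trophoblast, of primitive streak and tail bud and of visceral endoderm (dashed), with lines that only guide the eye. At E8.5, Zfp42 (9.73) and the trophoblast markers Elf5 (9.10) and Tpbpa (9.52) peaked in wild type replicate 1, where Nkx1-2 (5.31) and Pou5f1 (4.14) were lowest.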

How the data were processed

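Total RNA of 8 embryo samples was hybridised to 1-colour Affymetrix whole-genome mouse arrays. The deposited values are probe-set intensities on a linear scale, which the authors background-corrected, normalized and summarized by Robust Multi-array Analysis. The sources used here do not say whether all arrays were normalized together, and they give no detection calls. Precision is limited by the number of arrays. The study describes the samples as separate embryo propers, which the labels do not state, and a p-value covers only the spread among these samples.

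Log2 was taken with a pseudocount of 0. Of 45101 probe sets, 64 controls were left out and 45037 were fitted in limma 3.58.1 under R 4.3.3 by lmFit and eBayes, each group having its own mean, over all 8 arrays, with no filter on dim probe sets and Benjamini-Hochberg adjustment over all of them. A gene was called at an adjusted p below 0.05. An absolute t above 3, the threshold in the study's methods, was a second rule. Probe sets were named from the annotation of the platform, brought up to date with RefSeq symbols. The fit was tested on simulated data. The 10 genes, the gene lists and the tests were chosen with earlier results of these data known. All 10 genes were named, and from each list those called, or else those of highest absolute t, with 4 at most per comparison. Dnmt3a, Hmga2 and the markers in the plot of tissue markers were named after their values were seen. The list genes Tdh, Hmga1, Igf2bp2, Nanos3 and T were not analysed here. Alternatives were quantile normalization, median centring, the mean of a gene's probe sets, a filter at a mean log2 of 5 and an intensity trend. Others were array weights, the replicate number as a block, a fit of each stage alone, and leaving out each array.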

Additional observations from a re-analysis of the deposited data

How the results depend on the processing

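Over 32 differences of the 10 genes, 450 of 489 values under other settings kept their direction and side of the threshold. Many of them could not reverse, because the dim filter, trend, array weights, replicate block and a fit of 1 stage alone leave a difference unchanged. So does leaving out an array outside the comparison, and the count therefore says little about direction. With all arrays kept, 2 reversed: Sall4 at E8.5, knockout against wild type, was -0.43 as the mean of its probe sets, and Utf1, E12 against E8.5 in wild type, was -0.049 after median centring. By quantile normalization the stage falls in knockout and wild type were smaller, at -6.85 and -5.78 for Lin28a, -4.49 and -3.73 for Dnmt3b and -2.96 and -2.56 for Sall4. The count of the 10 genes at E8.5 past an absolute t above 3 was 2, and likewise 2 for the change of the knockout difference between stages; by adjusted p, both counts ran between 0 and 2 with 1 array left out. In wild type between stages 5 of the 10 were called with the dim filter, trend, array weights, or absolute t above 3, and 6 in knockout with array weights; with 1 array left out the counts were 3 to 6 in wild type and 4 to 6 in knockout.

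With 1 array left out, the knockout difference at E8.5 ran from -1.89 to 0.65 for Utf1, -2.68 to 1.62 for Zfp42, -0.52 to 0.59 for Dnmt3b, -1.04 to 0.71 for Dppa4 and -0.26 to 0.53 for Sall4. That of Pou5f1 at E12 ran from -0.40 to 0.095, and the change of the Zfp42 difference between stages from -1.52 to 2.78. E12 against E8.5 in wild type ran from -1.07 to 0.17 for Pou5f1 and -1.12 to 1.41 for Utf1. The causes were not tested.

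Replicate numbers were not taken to pair the samples, because the labels do not say that they do. Over probe sets, replicate differences had an r of 0.372 at E8.5 and 0.173 at E12 between genotypes, and -0.121 to 0.0756 across stages. The values across stages cannot decide whether samples were paired within a stage, and such a pairing was not modelled. In E8.5 embryos of both genotypes, the 3' minus 5' difference of actin was larger in the second replicate (2.5 in knockout, 2.6 in wild type) than in the first (1.6 in knockout, 1.5 in wild type). The replicate block was 1 term shared by both stages. With it, 5 of the 10 were called between stages in each genotype, Zfp42 in wild type among them (limma adjusted p = 0.0497). Between knockout and wild type 0 were called at either stage. The depth limit here is signal over background: Nanog, Lin28b and Tdgf1 were too dim in these arrays for a difference to be read with confidence.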
